A study of Rattus norvegicus with 4 samples.

Results

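The Wnt ligands, their receptors and the proteins that modulate them were examined on 4 rat whole-genome arrays. Members were chosen by the gene name printed in the array files: the Wnt, Frizzled (Fzd), Sfrp, Dkk, R-spondin (Rspo), Axin and Dishevelled (Dvl) families, Lrp5, Lrp6, Wif1, Frzb, Ctnnb1, Lef1, Tcf7, Apc and Gsk3b. The names gave 47 genes, and Rspo3 was reached through its older RefSeq name, RGD1563246, so that there were 48 members of 35537 gene names on the array. Of these, 37 passed the filter on dim probes, among 25513 genes tested. Rspo2, held on the array under the older name RGD1562331, was not made a member, and its probe did not pass that filter.

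The cells were rat hepatic stellate cells, which store retinoids beside the liver sinusoids and turn into matrix-producing myofibroblasts in fibrosis. The groups were untreated cells, cells given an siRNA against endoglin (a co-receptor for TGF-beta and BMP ligands) and cells given a control siRNA. RNA of untreated or endoglin siRNA cells was labelled with Cy5 and hybridized against Cy3-labelled control siRNA RNA, on 2 arrays per group. Each group had an array of RNA from 1 animal and an array of RNA pooled from 3 animals. The sources used here give no strain, age, culture time, siRNA sequence or interval between transfection and harvest. They also do not say whether arrays shared control RNA and whether the single animal contributed to the pool, so p-values measure only the spread between these arrays.

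Wnt proteins are secreted lipid-modified ligands that bind a Frizzled receptor together with the co-receptor Lrp5 or Lrp6. In the canonical branch this stops the destruction complex of Axin, Apc and Gsk3b from degrading beta-catenin (Ctnnb1), which then enters the nucleus and acts with TCF/LEF factors. Other ligands, such as Wnt5a, are known mainly for branches that do not need beta-catenin. R-spondins strengthen the response by keeping Frizzled receptors at the surface. Sfrp proteins, Frzb and Wif1 bind Wnts outside the cell, and Dkk proteins such as Dkk1 act on the co-receptors. In the liver, Wnt ligands and Rspo3 from non-parenchymal cells are known for setting the zonation of hepatocytes.

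The 6 members that passed the test between endoglin siRNA and control siRNA were Sfrp1, Fzd2, Fzd7, Wnt4, Wnt5a and Rspo3. The RefSeq promoter table (build GRCr8) held 4 of them, and the 250 bases before each start are printed 5′ to 3′ to show what lies upstream of genes that moved in either direction. Fzd7 lies at chr9:68425288-68425537, Wnt4 at chr5:154797200-154797449, Rspo3 at chr1:30112279-30112528 and Wnt5a at chr16:3703415-3703664, each on the plus strand. Capitals mark matches, on either strand, to CTTTGA (the core of the TCF/LEF element), CAGACA (a Smad element) and GGCGCC (the GC-rich element of BMP Smads); none of the matches overlapped.
Fzd7: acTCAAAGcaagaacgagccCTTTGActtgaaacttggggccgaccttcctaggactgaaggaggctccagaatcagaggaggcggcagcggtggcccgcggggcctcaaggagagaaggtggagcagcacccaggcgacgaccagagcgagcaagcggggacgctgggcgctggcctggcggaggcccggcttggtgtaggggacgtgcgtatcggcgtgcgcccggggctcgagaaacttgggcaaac
Wnt4: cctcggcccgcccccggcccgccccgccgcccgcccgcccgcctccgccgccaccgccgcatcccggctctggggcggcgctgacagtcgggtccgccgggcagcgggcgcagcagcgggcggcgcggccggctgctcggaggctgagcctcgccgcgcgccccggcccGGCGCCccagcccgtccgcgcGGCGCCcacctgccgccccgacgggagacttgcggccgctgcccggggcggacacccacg
Rspo3: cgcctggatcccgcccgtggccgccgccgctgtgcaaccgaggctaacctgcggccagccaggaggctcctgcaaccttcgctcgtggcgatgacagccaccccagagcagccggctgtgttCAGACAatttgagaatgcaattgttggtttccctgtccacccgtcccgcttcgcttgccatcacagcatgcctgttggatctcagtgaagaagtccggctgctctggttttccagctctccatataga
Wnt5a: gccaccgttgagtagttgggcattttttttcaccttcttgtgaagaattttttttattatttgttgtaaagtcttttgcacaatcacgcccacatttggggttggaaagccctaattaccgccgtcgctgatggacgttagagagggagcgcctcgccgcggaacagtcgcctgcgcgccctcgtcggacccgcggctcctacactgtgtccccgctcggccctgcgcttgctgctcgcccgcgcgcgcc

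The Fzd7 window held CTTTGA 2 times, beginning 248 and 230 bases before the start and on opposite strands. The Rspo3 window held CAGACA once, beginning 128 bases before the start, and the Wnt4 window held GGCGCC 2 times, at 81 and 60 bases. The Wnt5a window held none of these letters. Of 33469 promoters in the table, 13.9% held CTTTGA, 17.2% held CAGACA and 8.69% held GGCGCC. Of the 27 tested members with an entry, 2 held CTTTGA (7.41%), 6 held CAGACA (22.2%) and 8 held GGCGCC (29.6%). A match is a description of the letters and not of a bound site, and base composition was not matched.

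Of 43379 gene spots per array, a share between 61.9% and 93.3% exceeded background clearly in a given dye, and the highest share was on the array of the untreated pool. Endoglin itself (Eng) stood at log2 ratios of -3.08 (1 animal) and -1.72 (pool) after endoglin siRNA and at -0.36 and -0.42 in untreated cells, each against control siRNA. The reduction by the siRNA was -2.40 ± 0.26 (SE, n = 2 arrays; adjusted p = 0.0051), and its size was smaller in the pool. In the reported fit the log2 ratios over all genes also spread less on the endoglin siRNA pool array (SD 0.17) than on that of the 1 animal (SD 0.25). Over all genes the ratios of any pair of arrays correlated positively (r between 0.34 and 0.63). Cy5 and Cy3 were never swapped, so a probe's own dye effect cannot be told apart from the group in comparisons with control siRNA; the comparison of endoglin siRNA with untreated cells holds the dye constant. In the deposited table of values the untreated arrays carry the opposite sign, and the direction was taken here from the dyes in the labels. These are bulk RNA samples, in which fewer cells of a type and less RNA per cell cannot be told apart.

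Endoglin siRNA was set against control siRNA to ask which Wnt components differ when endoglin is reduced. After endoglin siRNA, the Wnt antagonist Sfrp1, the receptors Fzd2 and Fzd7 and the ligand Wnt4 were lower than after control siRNA, and the agonist Rspo3 and the ligand Wnt5a were higher. These 6 of 37 tested members (16.2%) passed an adjusted p of 0.05, where 8.13% of all genes did. The 2 that rose were 5.41% of the members, beside 5.26% of all genes, which is near the background. They include Rspo3, which was made a member outside the name pattern, with earlier results of these data known. The 4 that fell were 10.8% of the members, beside 2.88% of all genes. Over the 37 members the median log2 difference was -0.05, and over all genes it was 0.02. The members' median was -0.01 without the endoglin siRNA array of the 1 animal and -0.09 without that of the pool; it was -0.18 with the log ratios of Feature Extraction and 0.13 with median centring. In the reported fit 16 members were above 0 and 21 below. At an unadjusted p under 0.05 there were 10 members (27%), near the 23.1% of all genes.

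**Figure D1:**
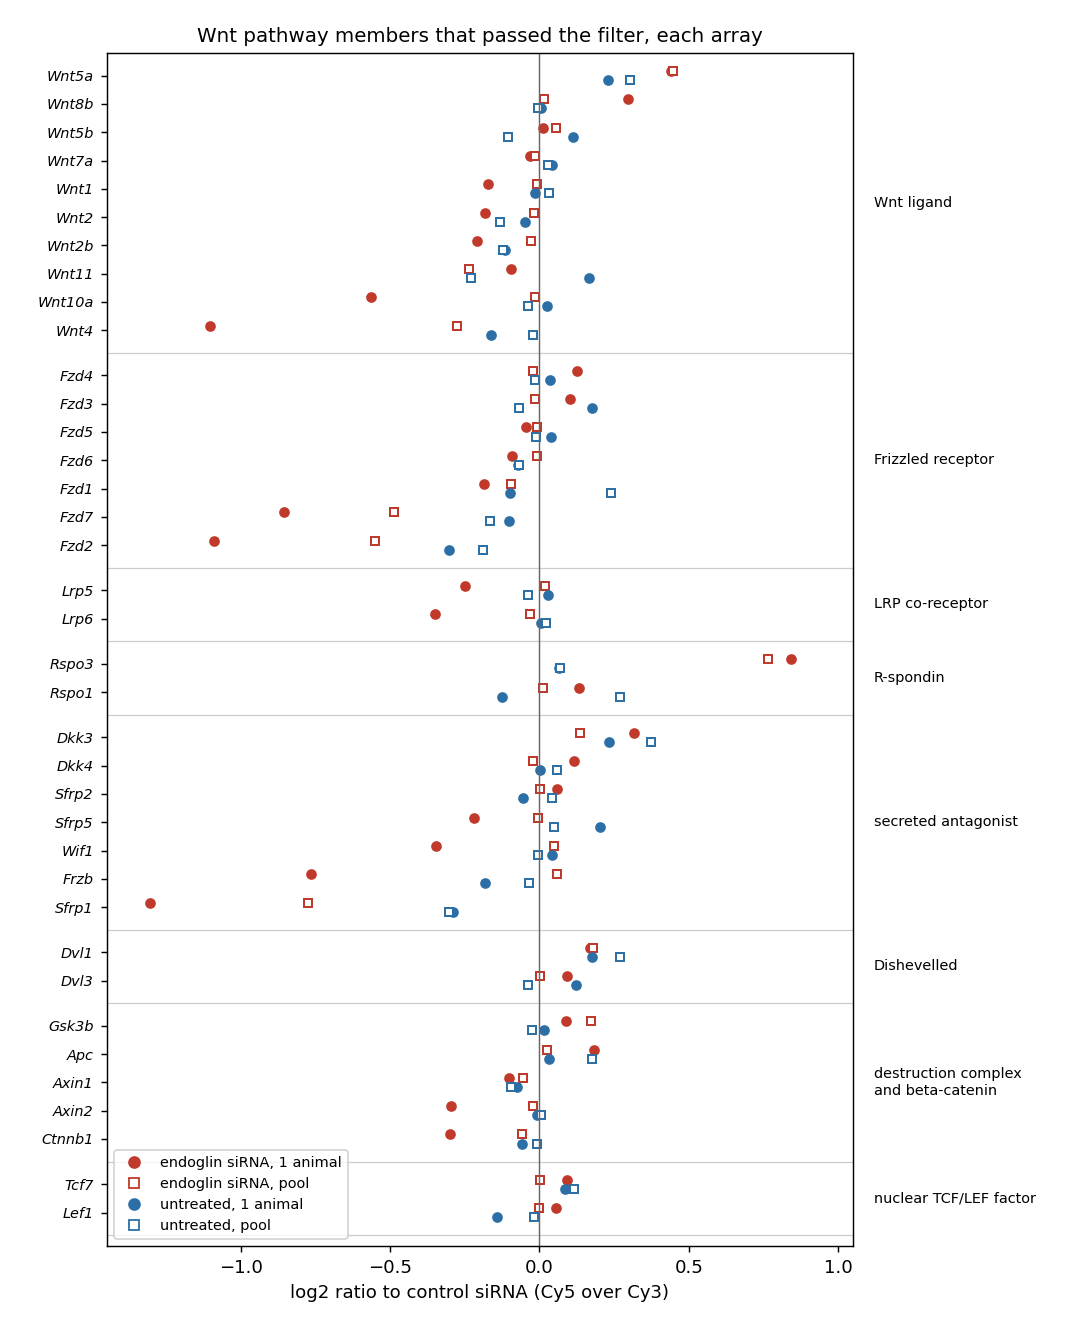
Log2 ratio to control siRNA (x axis) of each of the 37 members that passed the filter, grouped by role, on the 4 arrays (red, endoglin siRNA; blue, untreated; filled circles, 1 animal; open squares, pool of 3 animals). Sfrp1, Fzd2 and Fzd7 lie left of the untreated arrays on both endoglin siRNA arrays and Rspo3 lies right of them, at 0.84 and 0.77, whereas Frzb and Wnt10a lie far left only on the endoglin siRNA array of 1 animal (-0.77 and -0.57).

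Among the secreted antagonists, Sfrp1, which binds Wnt ligands through a Frizzled-like domain, fell the most of all members. Its log2 ratio to control siRNA was -1.30 in the 1 animal and -0.78 in the pool after endoglin siRNA, against -0.29 and -0.30 in untreated cells. Both endoglin siRNA values lay below both untreated values. The fitted difference from control siRNA was -1.04 ± 0.11 (SE, n = 2; limma adjusted p = 0.0052), a level 2.06-fold lower. Frzb, a relative of the Sfrp proteins, was at -0.77 in the 1 animal but at 0.06 in the pool, so the arrays disagreed and the mean of -0.35 ± 0.17 did not pass (adjusted p = 0.27). Wif1, which binds Wnts through its own domain, split in the same way, at -0.35 and 0.05. Dkk3, a divergent member of the Dkk family, was at 0.32 and 0.14 after endoglin siRNA and at 0.23 and 0.37 in untreated cells. These groups overlapped, and neither mean passed (0.23, adjusted p = 0.11; 0.30, adjusted p = 0.13). The 6 antagonists that did not pass ranged from -0.35 to 0.23 after endoglin siRNA; they include Sfrp2 (0.03), Sfrp5 (-0.11) and the gene named Dkk4 (0.05).

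Of 7 tested Frizzled receptors, 2 fell. Fzd2 was at -1.09 and -0.55 after endoglin siRNA and at -0.30 and -0.19 in untreated cells. Its difference from control siRNA was -0.82 ± 0.12 (SE, n = 2; adjusted p = 0.011), a level 1.77-fold lower. Fzd7, like Fzd2 a receptor used in both canonical and non-canonical signalling, was at -0.86 and -0.49, against -0.10 and -0.16 in untreated cells. Its difference was -0.67 ± 0.09 (SE, n = 2; adjusted p = 0.0094), or 1.59-fold lower. In both genes the endoglin siRNA arrays lay below the untreated arrays without overlap. A second Fzd7 probe, well above background in 6 of the 8 readings of 4 arrays and 2 dyes, gave -0.12 and 0.00 after endoglin siRNA and 0.04 and -0.02 in untreated cells. The probes disagreed; the mean over both was -0.37 and still passed (adjusted p = 0.034). The other 5 receptors, Fzd1, Fzd3, Fzd4, Fzd5 and Fzd6, lay between -0.14 and 0.05, with adjusted p from 0.41 to 0.85. The co-receptors Lrp5 (-0.11) and Lrp6 (-0.19) did not pass; Lrp6 was at -0.35 in the 1 animal and -0.03 in the pool.

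Among 10 tested ligands, Wnt4 fell and Wnt5a rose. Wnt4, a ligand known from kidney and female reproductive tract development, was at -1.10 in the 1 animal and -0.28 in the pool after endoglin siRNA, and at -0.16 and -0.02 in untreated cells. The groups did not overlap, but the pool moved far less than the 1 animal. The difference of -0.69 ± 0.17 (SE, n = 2) passed narrowly (adjusted p = 0.0495; 1.61-fold lower). Without the endoglin siRNA array of the 1 animal it was -0.28 (adjusted p = 0.18), and without either untreated array its adjusted p was 0.092. Wnt5a, the best known non-canonical ligand, was at 0.44 and 0.45 after endoglin siRNA and at 0.23 and 0.30 in untreated cells. Its 2 endoglin siRNA values were nearly equal, and the difference of 0.44 ± 0.06 (SE, n = 2; adjusted p = 0.0094) was a 1.36-fold rise. Untreated cells stood above control siRNA cells as well, at 0.27 ± 0.06 (adjusted p = 0.11). The 8 other ligands, Wnt1, Wnt2, Wnt2b, Wnt5b, Wnt7a, Wnt8b, Wnt10a and Wnt11, ranged from -0.29 to 0.16, with adjusted p of 0.20 or more. Wnt10a, at the low end, was at -0.57 in the 1 animal and -0.01 in the pool. Wnt8b, at the high end, was well above background in only 3 of 8 readings.

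Rspo3, a secreted agonist that binds Lgr receptors and the Rnf43 and Znrf3 ligases, rose. Its log2 ratio was 0.84 in the 1 animal and 0.77 in the pool after endoglin siRNA, and 0.07 on both untreated arrays. The arrays of a group lay close together, and the groups were well apart. The difference from control siRNA was 0.80 ± 0.06 (SE, n = 2; adjusted p = 0.0032), or 1.75-fold higher. Rspo3 was the 1 member at least 1.5-fold higher on both endoglin siRNA arrays, beside 0.321% of all genes, and Sfrp1 was the 1 member at least 1.5-fold lower on both, beside 0.419%. The other tested R-spondin, Rspo1, was at 0.13 and 0.01 after endoglin siRNA and at -0.13 and 0.27 in untreated cells, with overlap and a mean of 0.07 ± 0.10 (adjusted p = 0.73).

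In the reported fit the intracellular components showed no call in either direction. The destruction complex genes Axin1 (-0.08), Axin2 (-0.16), Apc (0.10) and Gsk3b (0.13) and beta-catenin, Ctnnb1 (-0.18), lay within 0.18 of 0 on the log2 scale. Axin2, whose transcription is a standard readout of canonical signalling, was at -0.29 in the 1 animal and -0.02 in the pool (adjusted p = 0.29). Ctnnb1 was at -0.30 and -0.06 (adjusted p = 0.21), and among the alternatives of processing it passed only without background correction. The Dishevelled genes Dvl1 (0.17, adjusted p = 0.14) and Dvl3 (0.05) and the nuclear factors Lef1 (0.03) and Tcf7 (0.05) did not pass; Lef1 and Tcf7 were well above background in 3 and 4 of 8 readings. A p that misses the threshold with 2 arrays a group does not show that these genes did not differ.

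Untreated cells were set against control siRNA cells, which asks how the same genes differ between cells with and without the control siRNA. No member of 37 passed, where 0.709% of all genes did, and 4 members (10.8%) had an unadjusted limma p under 0.05, beside 13.6% of all genes. The members ranged from -0.29 (Sfrp1, adjusted p = 0.32) to 0.30 (Dkk3), with a median of 0.00. Fzd2 (-0.25, adjusted p = 0.43), Fzd7 (-0.13), Wnt4 (-0.09), Wnt5a (0.27) and Rspo3 (0.07) had the same sign as after endoglin siRNA but were smaller in each case; both comparisons share the control siRNA group. Sfrp1 passed (adjusted p = 0.0496) when either endoglin siRNA array was left out of the shared estimate of the spread. On these arrays the macrophage markers moved: 5 of 11 were higher in untreated cells (median 0.83), led by Lyz2 at 1.70, and their summed signal had log2 ratios of 1.02 (1 animal) and 1.99 (pool). Their part in the untreated values of Wnt genes was not tested.

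The direct comparison of endoglin siRNA with untreated cells holds the dye constant, but it also takes in whatever differs between transfected and untransfected cells. No member passed an adjusted p of 0.05, where 0.0862% of all genes did, and 5 members (13.5%) had an unadjusted limma p under 0.05, beside 8.23% of all genes. Rspo3 came nearest, higher by 0.74 ± 0.09 (SE; adjusted p = 0.0501). Sfrp1 differed by -0.75 ± 0.16 (adjusted p = 0.23), Fzd7 by -0.54 ± 0.13 (adjusted p = 0.28), Fzd2 by -0.58 ± 0.17 (adjusted p = 0.37) and Wnt4 by -0.60 ± 0.24 (adjusted p = 0.56). Wnt5a differed by 0.18 ± 0.09 (adjusted p = 0.68), well under its difference from control siRNA. Macrophage markers were at a median of -0.63 in the same comparison, with C1qa at -1.09 (adjusted p = 0.038) and Lyz2 at -2.22 (adjusted p = 0.13), and the cholangiocyte marker Spp1 was at -1.67 (adjusted p = 0.026); their part in the Wnt values was not tested. For 5 members both endoglin siRNA ratios were higher than both untreated ratios (13.5%, beside 24.4% of all genes), namely Rspo3, Wnt5a, Gsk3b, Lef1 and Wnt8b. For 8 members both were lower (21.6%, beside 11.6% of all genes), namely Sfrp1, Fzd2, Fzd7, Wnt4, Lrp6, Sfrp5, Axin2 and Wnt7a. A second Lrp6 probe overlapped, at -0.26 and -0.06 against -0.05 and -0.11, and so did the second Fzd7 probe. The other Wnt7a probes, which did not pass the filter, overlapped as well.

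**Figure D2:**
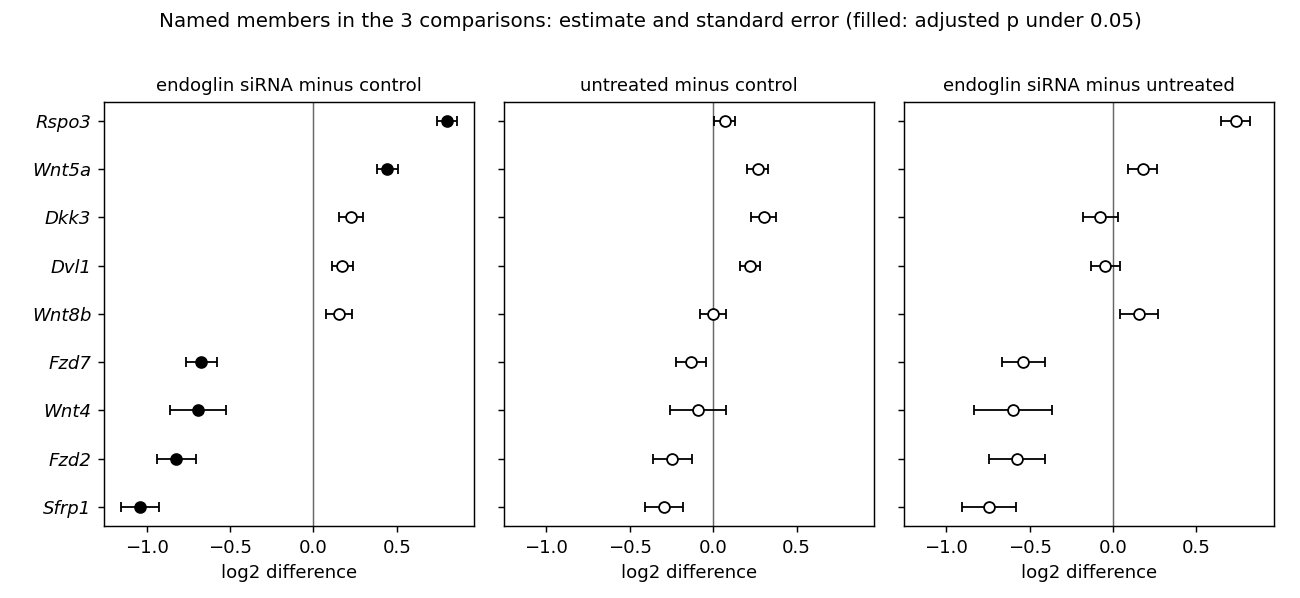
Log2 difference (x axis) of the 9 named members in the 3 comparisons, as the limma estimate with its standard error; filled points passed an adjusted p of 0.05. The 6 filled points all lie in the left panel, against control siRNA; against untreated cells Rspo3 (0.74) and Sfrp1 (-0.75) lie farthest from 0, without passing; with median centring in place of loess Sfrp1 turned to 0.15 there.

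The calls of this direct comparison moved with the background correction. On the pooled arrays 10 spots, 6 on the untreated and 4 on the endoglin siRNA array, lay more than 100 units below their local background and entered the normexp fit. With the fit made without them, Rspo3 (0.75, adjusted p = 0.024), Sfrp1 (-0.85, adjusted p = 0.034) and Fzd7 (-0.79, adjusted p = 0.019) passed against untreated cells, and Fzd2 did not (-0.71, adjusted p = 0.064). Of 25513 genes, 204 passed in this comparison under that fit and 22 in the reported fit. The calls against control siRNA moved as well. Without background correction 9 members passed there, the 6 with Ctnnb1, Lrp6 and Wnt2b, beside 17.7% of all genes. Under the fit without the far spots 9 passed, the 6 with Lrp6, Wnt10a and Wnt8b, beside 16.3% of all genes. The pool ratios to control siRNA under that fit came closer to those of the 1 animal for Fzd7 (-0.95), Sfrp1 (-0.95) and Fzd2 (-0.77), and not for Wnt4 (-0.24). Wnt8b on the endoglin siRNA pool went from 0.01 to 0.23. Over all genes the SD of the log2 ratios went from 0.17 to 0.26 on the endoglin siRNA pool array and from 0.16 to 0.23 on the untreated pool array. The part of the reported fit in the other pool values near 0 was not tested. With the RNA source as a block, 267 of all genes passed against untreated cells. With a block for the source of the RNA, 1 animal or pool, 2 members passed, Rspo3 and Sfrp1, and without the endoglin siRNA pool 6 passed: these 2, Fzd2, Fzd7, Wnt4 and Frzb.

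The control siRNA cells themselves differed between RNA sources in the same genes. Control siRNA signals were read once on each array, in Cy3, and are given as log2 signals after normalization between arrays; they are compared within a probe and not between genes. Rspo3 was read at 11.22 and 11.13 in the 1 animal and at 10.16 and 10.12 in the pool. Fzd7 was likewise higher in the 1 animal, at 11.50 and 11.55 against 10.47 and 10.19. Fzd2 was lower in the 1 animal, at 10.07 and 10.02 against 11.77 and 11.58, and so were Sfrp1 (11.36 and 11.33 against 12.67 and 12.26) and Wnt4 (13.52 and 13.57 against 14.97 and 14.96). In each of these 5 genes the sources differed by more than 1 log2 unit and did not overlap, and readings within a source differed by at most 0.41. Over all genes the median size of the source difference was 0.18 and its 90th percentile 0.64. Wnt5a differed by 0.43. Members that did not pass differed too, such as Frzb (-0.85, pool minus 1 animal), Sfrp5 (-0.64) and Wnt5b (0.61). For the 6 members that passed, the signs were the same in the scanner's processed signals, where Fzd2 differed by 0.86. In those signals the median size over all genes was 0.44 and the 90th percentile 1.45. All 5 genes lay below that percentile there. The number of animals, the animal and the preparation cannot be told apart, and this pattern was noticed after the values were seen and not tested. The endoglin siRNA ratios went the same way in both sources in each of the 6 genes. The test that chose these genes used the same ratios and favours arrays that agree. The part of the starting level was not tested.

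**Figure D3:**
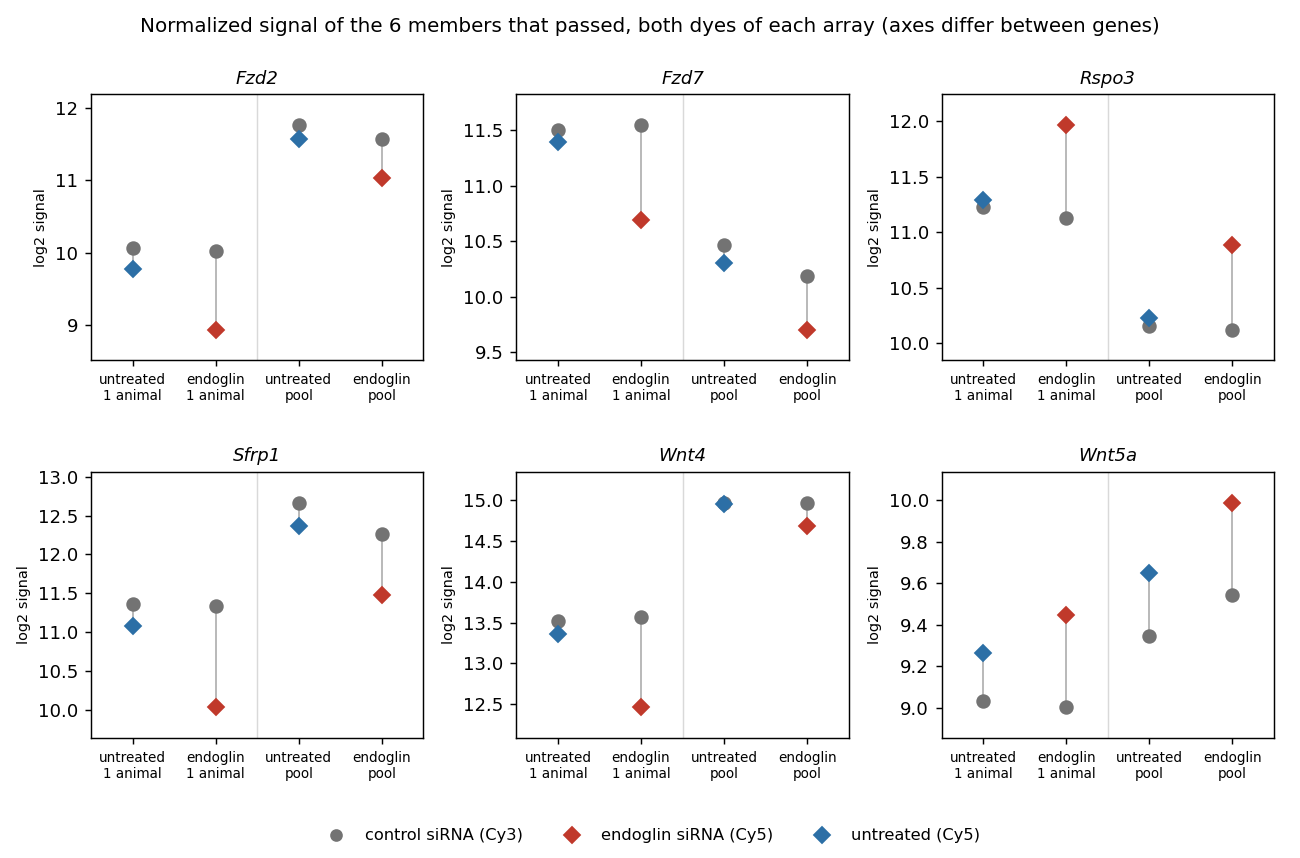
Normalized log2 signal (y axis, its range differing between genes) of the 6 members that passed, in both dyes of each array (grey, control siRNA in Cy3; red, endoglin siRNA in Cy5; blue, untreated in Cy5); the line joins the dyes of an array. Control siRNA cells of the pool were lower than those of the 1 animal for Rspo3 and Fzd7 and higher for Fzd2, Sfrp1, Wnt4 and Wnt5a. The red points lie on the same side of grey in both sources, which the test that chose these genes favours.

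Other components of the pathway and genes known as Wnt targets were read from lists of general knowledge. Of 52 other pathway genes 39 were tested, and 1 rose and 4 fell after endoglin siRNA against control siRNA, with a median of -0.01, where 5.26% of all genes rose and 2.88% fell. The count of 5 became 2 without the endoglin siRNA array of the 1 animal and 3 without either untreated array. It was 10 without background correction, 10 with normexp fitted without the far spots and 9 with the RNA source as a block. In these settings 17.7%, 16.3% and 15.5% of all genes passed. It was 0 in the settings where 0 of all genes passed. Csnk1d, a casein kinase, fell by 0.50 on the log2 scale (adjusted p = 0.012), and the planar polarity gene Prickle1 was at -0.49 (adjusted p = 0.0087). The glypican Gpc4 (-0.40, adjusted p = 0.027) and Ryk, a Wnt co-receptor (-0.34, adjusted p = 0.018), also fell. Cxxc4, an inhibitor of Dishevelled, rose (0.33, adjusted p = 0.042). Csnk1d stood nearly as low in untreated cells, at -0.31 and -0.49 against -0.58 and -0.42 after endoglin siRNA, and those groups overlapped. Gpc4 overlapped too, at -0.52 and -0.28 against -0.20 and -0.35, whereas the groups did not overlap for Prickle1, Ryk and Cxxc4.

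Of 31 Wnt target genes 26 were tested, with a median of 0.05. Of these 2 rose and 3 fell, where 5.26% of all genes rose and 2.88% fell. The count of 5 became 2 without the endoglin siRNA array of the 1 animal, 8 without that of the pool and 3 without either untreated array. It was 6 without background correction, 5 with normexp fitted without the far spots and 8 with the RNA source as a block. It was 0 in the settings where 0 of all genes passed. Ccn4, a matricellular protein originally named for its induction by Wnt, had the largest difference of the list. Its ratios to control siRNA were -2.76 in the 1 animal and -1.53 in the pool after endoglin siRNA, and -0.21 and -0.36 in untreated cells. The difference was -2.15 ± 0.24 (SE, n = 2; adjusted p = 0.0052). Sox9, a transcription factor also used as a cholangiocyte marker, was at -1.65 and -0.53 against -0.14 and 0.19 (difference -1.09 ± 0.23, adjusted p = 0.03). The receptor Ephb3 passed (-0.58, adjusted p = 0.03) with the 1 animal at -0.85, but the pool was at -0.30, as were untreated cells of the pool, and the difference from untreated cells was -0.31 (adjusted p = 0.72). Jun (0.32, adjusted p = 0.032) and Cyp2e1 (0.48, adjusted p = 0.011), a pericentral hepatocyte enzyme, rose. In the other comparisons no gene of either list passed in the reported fit, and the medians of the lists lay between -0.04 and 0.03. With a block for the RNA source, 5 target genes and 1 other pathway gene passed in untreated cells. Of all 25513 genes, 1036 passed there with the block and 181 in the reported fit. Between endoglin siRNA and untreated cells, 4 target genes and 1 other pathway gene passed with the block. Of all genes, 267 passed in that comparison with the block and 22 in the reported fit. Without the endoglin siRNA pool, 5 target genes and 1 other pathway gene passed between endoglin siRNA and untreated cells. Several of these targets also answer to pathways other than Wnt, so the list does not measure Wnt signalling alone.

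Markers of other cells were read beside these genes. Of 15 tested stellate cell markers, between 13 and 15 were well above background in every dye of every array; 3 rose and 2 fell after endoglin siRNA. Of 8 tested endothelial markers Kdr, a VEGF receptor, rose, at 1.33 (1 animal) and 0.41 (pool) after endoglin siRNA and -0.03 on both untreated arrays (difference 0.87 ± 0.18, adjusted p = 0.031). The summed endothelial signal, over 10 genes, had log2 ratios of 0.80 and 0.70 after endoglin siRNA and 0.35 and 0.44 in untreated cells. The median log2 ratio over these genes was 0.08 and 0.01 after endoglin siRNA and 0.00 and 0.01 in untreated cells. The defining endothelial genes Stab2, Lyve1 and Emcn were well above background in 2 of 8 readings each, and Pecam1 and Tek in 3, while Tie1 was in 5, Cdh5 and Vwf in 6 and Kdr and Fcgr2b in 8. The part of these cells in the rise of Rspo3 was not tested. Macrophage markers did not pass after endoglin siRNA (0 of 11, median 0.12; summed signal 0.00 and -0.36). Of 9 tested hepatocyte markers only Cyp2e1 rose, while Fgb, Tf, Hnf4a and Cyp2e1 were well above background in all 8 readings, Alb in 2 and Cps1 in 1. Of 5 tested cholangiocyte markers Sox9 and Spp1 fell, and detection ran from 0 of 8 readings (Epcam) to 8 (Cdh1, Sox9 and Spp1). In untreated cells Spp1 (1.18, adjusted p = 0.014) and the endothelial gene Fcgr2b (0.54, adjusted p = 0.037) stood above control siRNA cells. None of 10 portal fibroblast and mesothelial markers passed in any comparison.

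The signs of the 6 differences from control siRNA held under 12 of 13 alternatives of processing. With median centring in place of loess the median of all genes moved to 0.32, and Fzd2 (0.04), Fzd7 (0.13) and Wnt4 (0.55) turned positive; relative to that median Fzd2 (-0.28), Fzd7 (-0.19) and Sfrp1 (-0.38) stayed negative and Wnt4 (0.24) did not. Against untreated cells the same setting turned Sfrp1 (0.15), Fzd2 (0.27), Fzd7 (0.16) and Wnt4 (0.46) positive, where the median of all genes was 0.26. Under that setting, scaling between arrays, the log ratios of Feature Extraction and the deposited values, 0 members and 0 of all genes passed.

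**Figure D4:**
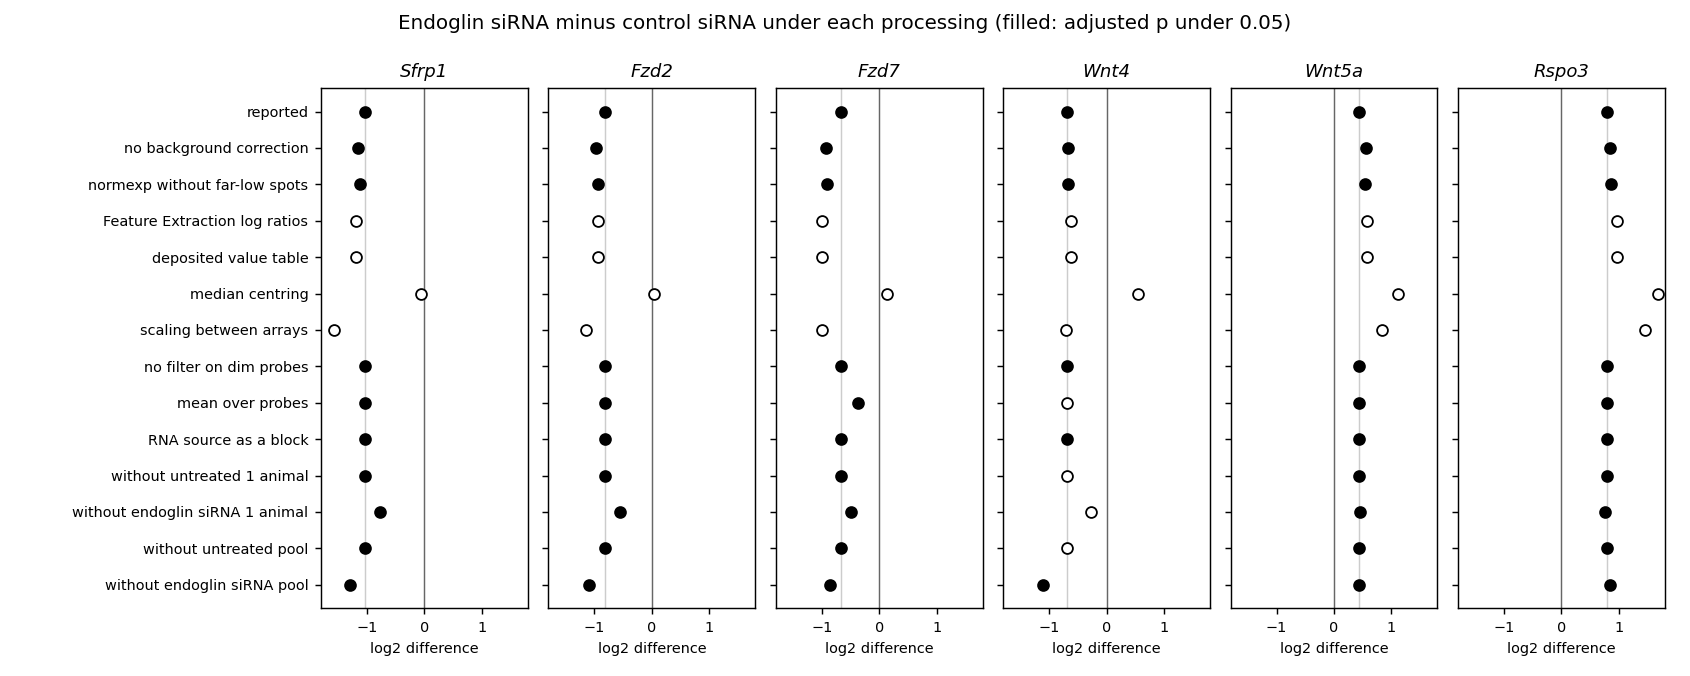
Log2 difference between endoglin siRNA and control siRNA (x axis) of the 6 members that passed, under the reported processing and 13 alternatives; filled points passed an adjusted p of 0.05 (limma, over all genes). Rspo3 and Wnt5a lie above 0 and Sfrp1 below 0 throughout, whereas Fzd2 (0.04), Fzd7 (0.13) and Wnt4 (0.55) cross 0 under median centring, and Wnt4 is filled under 5 of the alternatives and the others under 9.

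The 11 members that did not pass the filter were Wnt3, Wnt3a, Wnt6, Wnt7b, Wnt8a, Wnt9a, Wnt9b, Wnt10b, Fzd9, Dkk1 and Sfrp4. Wnt10b was well above background in 0 of 8 readings, and the other 10 in 2 of 8, both on the array of the untreated pool; such readings bound a level and show no absence. Of the 37 tested members, 28 were well above background in all 8 readings. The members had 64 probes, and 13 members had more than 1; a gene was represented by its brightest probe. The name Dkk4 is uncertain, because the file's description of its probes points to Dkk2 and places them on chromosome 2, whereas RefSeq places Dkk4 on chromosome 16.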

How the data were processed

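RNA of rat hepatic stellate cells was hybridized to 4 two-colour Agilent arrays on 1 slide, with 2 arrays per group. Per the file headers, the authors' scans were read by Feature Extraction (Agilent, version 9.5.1.1). Per the same headers it gave the authors linear intensity values for each spot and its local background, and a log10 ratio of Cy5 to Cy3. The deposited value matrix also holds log10 ratios; they correlated with those of the scanner files at r = 1 on the endoglin siRNA arrays and at r = -1 on both untreated arrays (median 0 on each). Why the sign differs is unknown, and the labels' dyes set the direction.

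Here, mean signals were corrected by normexp (offset 50) with local background and normalized by loess within each array, with 1639 control spots at weight 0 and outlier spots left out; 0 spots were saturated. A probe was kept if 1 dye or both rose well above background on 2 or more arrays (30021 of 41012 probes) and every array had a usable spot (29845). The brightest probe stood for a gene, and limma 3.58.1 fitted group means to 25513 genes. There were 2 residual degrees of freedom and 5.27 from the prior, and p-values were adjusted by Benjamini-Hochberg over all genes, with a threshold of 0.05. Files were read by version 1.17.8 of data.table under R 4.3.3. Values are log2 differences with moderated standard errors (SE). All arrays share 1 estimate of the spread, and the number of arrays limits the precision. Signals of single dyes were taken after loess and Aquantile normalization.

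Named members were those that passed in any comparison, the 3 highest and 3 lowest of each comparison, those at least 1.5-fold changed on both arrays of a group, and Rspo3; of other lists, genes that passed. The members, the lists of other pathway genes, targets and cell markers, and the alternatives were chosen with earlier results of these data known. The 13 alternatives were no background correction, normexp fitted without 10 spots far below background, Feature Extraction log ratios, deposited values, median centring, scaling between arrays, no filter on dim probes, the mean over probes, the RNA source as a block, and leaving out each array. The procedure was tested on simulated data.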

Additional observations from a re-analysis of the deposited data

Results flagged for a closer look

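For 4 members the 2 endoglin siRNA ratios and the 2 untreated ratios to control siRNA had opposite signs on all arrays, at the brightest probe. The difference of endoglin siRNA minus untreated was 0.11 for Lef1, -0.21 for Lrp6, -0.24 for Sfrp5 and -0.058 for Wnt7a. The limma test of that difference was not passed by any of them (adjusted p from 0.64 to 0.94). Lef1 was at 0.05 and 0.00 after endoglin siRNA and at -0.14 and -0.02 in untreated cells, and was well above background in 3 of 8 readings. Sfrp5 was at -0.22 and -0.01 against 0.20 and 0.05. Lrp6 was at -0.35 and -0.03 against 0.01 and 0.02, and Wnt7a at -0.03 and -0.02 against 0.04 and 0.03. In all 4 genes values near 0 decide the signs, such as 0.0001 for Lef1 and -0.005 for Sfrp5 on the endoglin siRNA pool. A second kept Lrp6 probe was at -0.26 and -0.06 against -0.05 and -0.11, with 1 sign throughout and overlap. A second kept Sfrp5 probe was at -0.02 and 0.01 against 0.07 and 0.09, so its signs were not opposite on all arrays. The other Wnt7a probes, each well above background in 2 of 8 readings, did not pass the filter, and their groups overlapped.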

How the results depend on the processing

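Of the counts of members that passed, 27 kept their size within 1.5 times under an alternative and 12 did not. In untreated cells and against untreated cells the reported count was 0, and 0 under an alternative counted as kept. Where 0 of all genes passed no member could pass, so the 27 do not measure robustness. The count against control siRNA was 9 without background correction, beside 17.7% of all genes. It was also 9 with normexp fitted without spots far below background, beside 16.3%. Against control siRNA, 6 members passed, and 0 passed with Feature Extraction log ratios, 0 with the deposited values, 0 with median centring and 0 with scaling between arrays, settings in which 0 of all genes passed; leaving out 1 array gave 5 to 10 members. In untreated cells leaving out 1 array gave 0 to 1 members. Against untreated cells, 0 members passed, and 3 passed without background correction, 3 with normexp fitted without spots far below background, 1 without the filter on dim probes and 2 with the RNA source as a block; leaving out 1 array gave 0 to 6. Of 25513 genes, 22 passed against untreated cells in the reported fit and 170 without background correction. With normexp fitted without spots far below background 204 passed, and with the RNA source as a block 267. Without the filter on dim probes 0.133% of all genes passed in that comparison. Among single genes 22 values changed sign. With median centring these were, against control siRNA, Fzd2 (0.037), Fzd7 (0.13), Wnt4 (0.55) and Wnt8b (-0.22), in untreated cells Wnt4 (0.10) and Wnt8b (-0.16), and against untreated cells Dkk3 (0.97), Dvl1 (0.91), Fzd2 (0.27), Fzd7 (0.16), Sfrp1 (0.15), Wnt4 (0.46) and Wnt8b (-0.062). With scaling between arrays Dkk3 (0.0005) and Dvl1 (0.12) turned against untreated cells and Wnt8b (-0.0018) in untreated cells. Wnt8b in untreated cells was also -0.0073 without background correction, -0.0051 with normexp fitted without the far spots, and -0.0055 to 0.0057 with 1 array left out. Against untreated cells Wnt8b was -0.0531 with Feature Extraction log ratios and -0.0532 with the deposited values, and Dkk3 lay between -0.166 and 0.0142 with 1 array left out. The cause was not tested for any of these. A left-out array leaves 1 array in its group, which is then assumed to vary like the other group. The labels number no replicates but give each group 1 array of 1 animal and 1 of a pool. The block on the RNA source pairs the arrays that way. Rspo3 and Sfrp1 passed against untreated cells with this pairing. Against control siRNA the same 6 of 37 members passed as without the block (16.2%). The share of all genes rose from 8.13% to 15.5%, so the members' share was then near the background. Probes near background, as for Wnt8b, limit what small differences can show.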
